A study of Mus musculus with 60 samples.

Results

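Myeloid C-type lectin receptors are pattern recognition receptors of neutrophils, monocytes, macrophages and dendritic cells. The 9 genes described here, of the 49315 in the count tables, were chosen by name: Clec4e, Clec4d, Clec4n, Clec7a, Clec4a1, Clec4a2, Clec4a3, Clec5a and Clec12a. All were matched by gene name and identifier, and all 9 passed the minimum of 10 summed counts in every comparison. RNA was sequenced from whole blood of 60 male CD2F1 mice, 5 to 6 weeks old at purchase, in 10 groups of 6, and each mouse was bled once. Mice were given vehicle (water with methylcellulose and polyvinylpyrrolidone) or BIO 300, an oral powder of the isoflavone genistein, at 50, 100 or 200 mg/kg 2 times a day for 6 days. The labels name these doses low, medium and high, and the amounts are those of the study's methods. Day 0 samples were taken 24 h and Day 1 samples 48 h after the last dose. The irradiated groups received vehicle or 200 mg/kg BIO 300 and then 9.2 Gy of total body irradiation (TBI) from cobalt-60 on Day 0. Their blood was drawn 24 h after TBI, which was Day 1. No group was left without a vehicle or drug dose, and no irradiated group was sampled on Day 0. In whole blood, fewer cells of a type and less RNA per cell cannot be told apart.

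These receptors bind microbial glycolipids and polysaccharides, and some of them also bind products of dying host cells. Mincle (Clec4e), MCL (Clec4d) and Dectin-2 (Clec4n) have no signalling motif of their own and pair with the adaptor FcR gamma (Fcer1g). Dectin-1 (Clec7a), the beta-glucan receptor, carries a motif that recruits the kinase Syk, and MDL-1 (Clec5a) pairs with DAP12 (Tyrobp). Syk acts through Card9 on NF-kappaB and on cytokine genes such as Il1b. The other members include inhibitory receptors: DCIR (Clec4a2) and MICL (Clec12a) carry inhibitory motifs, and Clec4a1 and Clec4a3 encode relatives of DCIR.

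All 9 genes lie on mouse chromosome 6 (GRCm38, GENCODE M21). A cluster of 6 members spans 368.0 kb, from 122921848 to 123289870, in the order Clec4a1, Clec4a3, Clec4a2, Clec4n, Clec4d and Clec4e. Clec4e (ENSMUSG00000030142) is at 123281789 to 123289870 on the minus strand, and Clec4d (ENSMUSG00000030144) is at 123262111 to 123275265 on the plus strand. These neighbours converge on each other and their annotated ends are 6523 bases apart. Clec12a (129342691 to 129365303) and Clec7a (129461591 to 129472779) form a pair further along the chromosome, and Clec5a (40574894 to 40585821) stands alone. Clec4a2 overlaps Gm44132 on the same strand, so that its reads could be shared with that gene.

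RefSeq promoter windows (GRCm38.p6, 250 bases before to 50 bases after a start site) were found for 8 of the 9 genes, all but Clec4n. The windows of Clec4e and Clec4d are shown because these adjacent, functionally paired genes were both higher DEGs after TBI, while Clec4d alone was a DEG at 100 and 200 mg/kg BIO 300 on Day 1 with TMM scaling (with total counts Clec4d was no DEG there and Clec4e a lower DEG). Clec4e is chr6:123289822-123290121 on the minus strand and Clec4d is chr6:123261857-123262156 on the plus strand, each written 5′ to 3′ with motif matches in capitals.
Clec4e: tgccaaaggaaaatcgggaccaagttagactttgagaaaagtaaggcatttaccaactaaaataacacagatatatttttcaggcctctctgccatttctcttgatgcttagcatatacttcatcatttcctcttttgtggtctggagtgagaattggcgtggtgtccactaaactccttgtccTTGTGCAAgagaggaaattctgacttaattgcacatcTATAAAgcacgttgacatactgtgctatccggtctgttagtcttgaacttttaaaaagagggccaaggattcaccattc
Clec4d: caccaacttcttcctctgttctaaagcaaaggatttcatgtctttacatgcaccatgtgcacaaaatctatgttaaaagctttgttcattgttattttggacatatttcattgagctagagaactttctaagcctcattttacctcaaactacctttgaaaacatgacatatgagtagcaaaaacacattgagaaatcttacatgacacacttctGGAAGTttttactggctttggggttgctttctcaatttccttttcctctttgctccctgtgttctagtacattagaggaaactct
The search used 5 motifs on both strands, and none overlapped another in these 2 windows. C/EBP was searched as TTGCNNAA, the core bound by ETS factors as GGAAGT, AP-1 as TGANTCA and the TATA box as TATAAA. NF-kappaB was searched by a loose pattern, GGG and CC with any 5 bases between them. The capitals in Clec4e are a C/EBP match that begins 66 bases before the start site, read on the opposite strand, and a TATA box that begins 29 bases before it. The capitals in Clec4d are an ETS core that begins 35 bases before its start site. Of 32851 mouse promoter windows of the same length, 10.8% held the C/EBP letters, 13.6% the TATA box, 23.8% the ETS core, 7.8% AP-1 and 50.8% NF-kappaB. Among the 8 member genes, the C/EBP letters were found in Clec4e and Clec12a, the ETS core in Clec4d and Clec4a2, and AP-1 in Clec4a2 and Clec12a. The loose NF-kappaB pattern was found in Clec4a1, and the TATA box letters in Clec4e, Clec7a, Clec4a2 and Clec5a. The letters began 161 bases before the start site in Clec4a2 and, on the opposite strand, 209 bases before it in Clec5a. In Clec7a they lay on the opposite strand after the start site, from base 43, and in only 1 of its windows. A match is a run of letters and not a shown binding site. None of these motifs was found in every window of the genes that were higher after TBI, and Clec4n had no window.

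Library totals ranged from 15099415 to 45589415 counts, with a median of 24877993.5. Levels are given as CPM, reads of a gene scaled to library size, on a common trimmed mean of M-values (TMM) scale of the 60 mice, as mean ± SD of 6 mice. The mice of a group are separate animals. A gene was a differentially expressed gene (DEG) when, in edgeR's quasi-likelihood test, its log2 fold change was beyond 1 in either direction with an adjusted p below 0.05. The Day 1 comparisons with vehicle (TBI and each dose) share 1 set of 6 vehicle-treated mice, as do the Day 0 comparisons. Scaling to total counts in place of TMM moved the median log2 fold change of all genes by more than 0.1 in all but 1 of the comparisons. Against vehicle on Day 1 the shift was -0.36 for TBI, -1.48 for the 200 mg/kg dose and -1.38 for the 100 mg/kg dose, and against vehicle on Day 0 it was 0.66 for the 50 mg/kg dose. In 10 libraries, from 9 of the groups, the liver transcript Alb exceeded 100 CPM, and 2 of these were in vehicle-treated irradiated mice. Results of members and of lists that rest on them are also given without them, while values of single list genes include them.

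Per length of annotated exons, Clec7a had the highest mean level over the 60 mice, 47.8 CPM per kb, followed by Clec4d at 25.2, Clec4a3 at 11.2 and Clec4a1 at 8.71 CPM per kb. Clec12a (3.61 CPM per kb), Clec4e (3.22), Clec5a (2.30) and Clec4a2 (2.00) were lower, and Clec4n was lowest at 1.08 CPM per kb. With the longest protein-coding transcript as the length, Clec4e was at 6.34 and Clec12a at 7.97 CPM per kb, and only Clec5a and Clec4a2 exchanged places in the order. Clec4n had the fewest reads, between 5 and 159 per mouse, so that its levels rest on few counts. Clec4e had between 67 and 1809 reads per mouse.

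On the TMM scale the levels of Clec4e fell into a low set of 8 unirradiated groups and a high set of 2 irradiated groups. The lowest mean was 6.55 ± 0.66 CPM, at 50 mg/kg on Day 0. It was followed on Day 0 by 100 mg/kg (6.77 ± 0.65 CPM), 200 mg/kg (8.04 ± 1.65 CPM) and vehicle (8.18 ± 2.99 CPM). On Day 1 the means were 8.20 ± 2.86 CPM at 50 mg/kg, 10.3 ± 3.22 CPM with vehicle, 10.5 ± 2.90 CPM at 100 mg/kg and 10.9 ± 2.73 CPM at 200 mg/kg. Each of these neighbours in the order overlapped the next and was within 1 SD of it. Irradiated mice had 43.4 ± 18.3 CPM with 200 mg/kg BIO 300 and 46.9 ± 16.1 CPM with vehicle, and these neighbours also overlapped. The lowest irradiated mouse had 28.1 CPM and the highest unirradiated mouse 15.2 CPM with TMM, whereas with total counts the lowest irradiated mouse was at 19.9 CPM and the highest unirradiated mouse at 22.7 CPM. The order of the unirradiated groups also depended on the scaling, and with total counts the lowest mean was that of 200 mg/kg on Day 1 (5.53 CPM) and the highest that of vehicle on Day 1 (14.8 CPM).

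Clec4d had 3 tiers in its group means with TMM and no middle tier with total counts, where 100 mg/kg (29.1 CPM) and 200 mg/kg (23.6 CPM) on Day 1 stood beside 27.3 CPM with vehicle. From 12.1 ± 1.68 CPM (50 mg/kg, Day 0) to 19.9 ± 5.04 CPM (200 mg/kg, Day 0), 6 groups each overlapped the next. With TMM, the 200 mg/kg (46.4 ± 9.48 CPM) and 100 mg/kg (52.1 ± 11.6 CPM) groups of Day 1 came next and did not overlap the groups below. Then came the irradiated groups with 97.7 ± 32.2 CPM (vehicle) and 105 ± 29.0 CPM (BIO 300). Single mice of the middle and upper tiers overlapped, with 69.3 CPM in the highest mouse at 100 mg/kg and 48.6 CPM in the lowest irradiated mouse. The highest group mean was 8.63 times the lowest for Clec4d, 7.99 times for Clec5a, 7.17 times for Clec4e, 6.55 times for Clec7a, 5.19 times for Clec4n, and 2.41 times or less for the other 4 members. This order also turned with the scaling: with total counts it was 11.8 times for Clec7a, 11.4 times for Clec5a, 9.02 times for Clec4e, 8.72 times for Clec4n, 6.21 times for Clec4d and 4.39 to 4.69 times for the other 4. On the TMM scale, for Clec4a1, Clec4a2, Clec4a3 and Clec12a every group overlapped the next in the order and was within 1 SD of it.

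**Figure D1:**
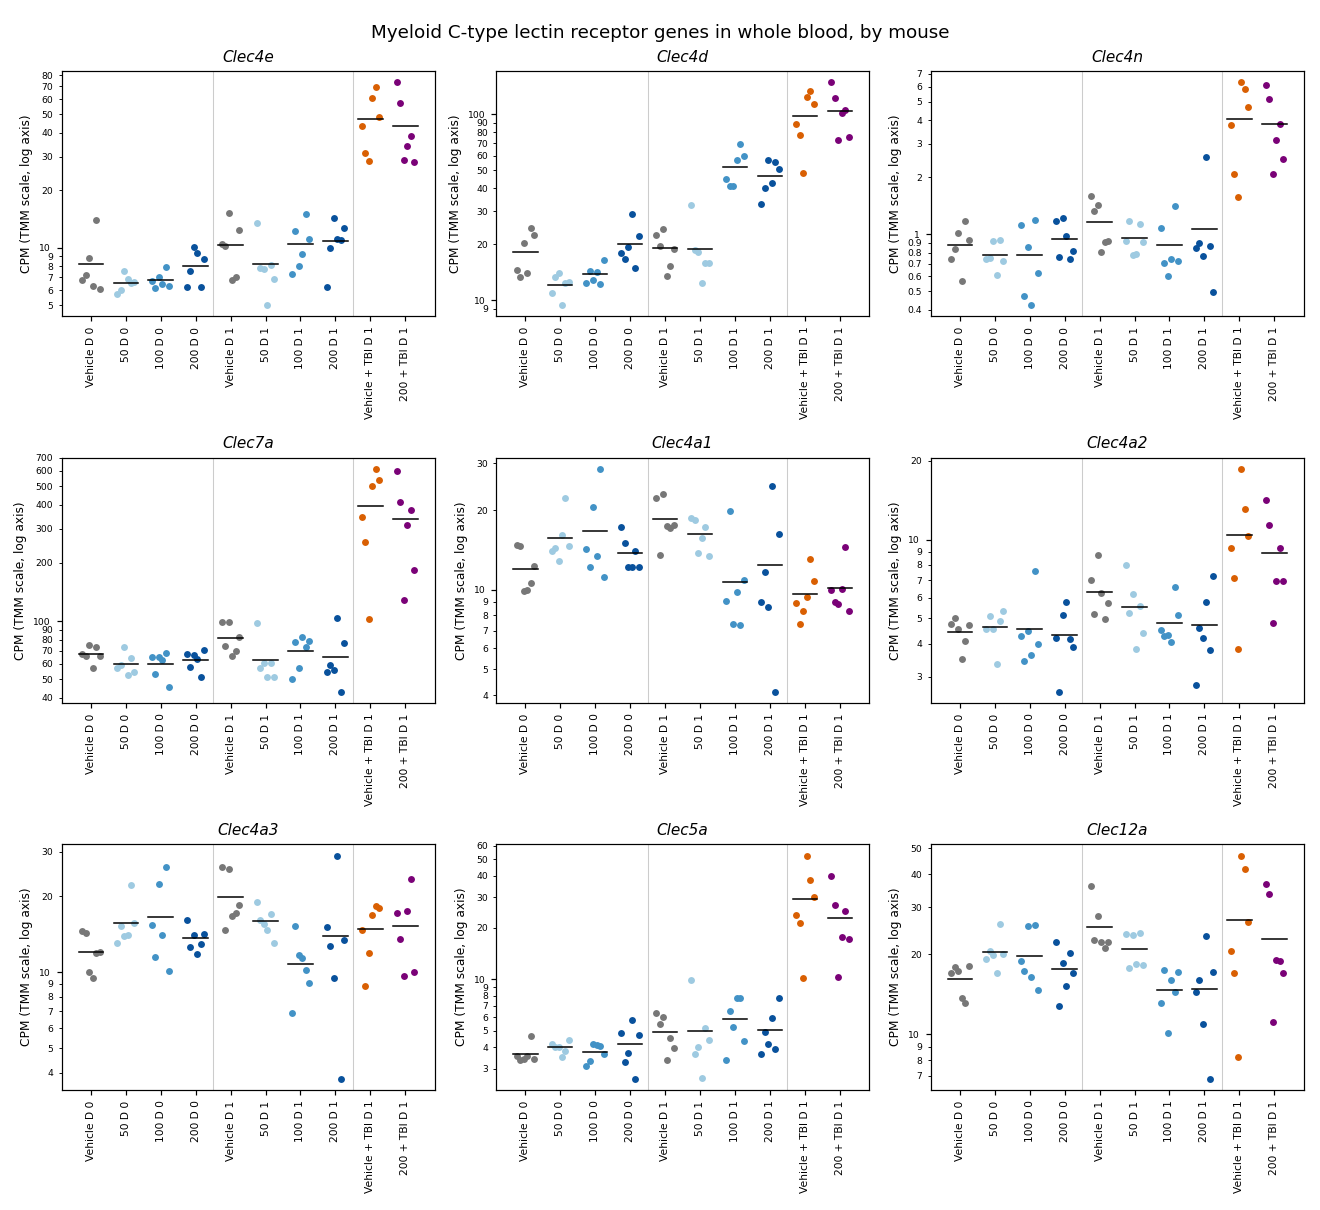
CPM of each gene (TMM scale of 60 mice, log axis) in every mouse, by group; numbers are BIO 300 doses in mg/kg, D 0 and D 1 are Day 0 and Day 1, points are mice and bars are means of 6 mice. Clec4e, Clec4n, Clec7a and Clec5a were high in the irradiated groups, Clec4d was also high at 100 and 200 mg/kg on Day 1 on this scale, although its fold change there was near 0 when libraries were scaled to total counts (-0.21 at 200 mg/kg), and Clec4a1 and Clec4a3 showed no such rise.

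Irradiation was examined first, in vehicle-treated mice on Day 1. Of the 9 members, 5 were DEGs and all 5 were higher after TBI: Clec4e, Clec4d, Clec4n, Clec7a and Clec5a. Among all 25146 genes tested, 36.0% were DEGs and 19.6% were DEGs that were higher. The median log2 fold change was 1.77 over the members and 0.09 over all genes. The same 5 genes were higher DEGs with total-count scaling, where Clec4a1 also became a lower DEG, with DESeq2, and without the mice with high Alb.

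Clec4e ranged from 6.77 to 15.2 CPM (median 10.3) in vehicle-treated mice and from 28.4 to 69.7 CPM (median 45.8) after TBI, with no overlap on the TMM scale. With total counts the highest vehicle-treated mouse (22.7 CPM) was above the lowest irradiated mouse (20.7 CPM). Its log2 fold change was 2.16 ± 0.28 (SE), with an adjusted p of 7e-05 in edgeR's test. Clec4d, its partner receptor, ranged from 13.4 to 24.2 CPM (median 19.2) and rose to between 48.6 and 133.6 CPM (median 101.0) after TBI. All irradiated mice lay above all vehicle-treated mice, and the log2 fold change of Clec4d was 2.34 ± 0.26 (edgeR adjusted p = 2.5e-05).

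Clec7a ranged from 66.3 to 98.5 CPM (median 78.4) before and from 101.9 to 615.2 CPM (median 425.3) after TBI. The lowest irradiated mouse was just above the highest vehicle-treated mouse with TMM and below it with total counts (139.5 and 147.7 CPM). The log2 fold change of Clec7a was 2.25 ± 0.37 (edgeR adjusted p = 0.00033). Clec5a had the largest change of the members, 2.54 ± 0.35 on the log2 scale (edgeR adjusted p = 0.0001), from a range of 3.39 to 6.32 CPM (median 5.01) to one of 10.1 to 52.6 CPM (median 26.9). Clec4n, with the fewest reads, ranged from 0.80 to 1.60 CPM (median 1.12) in vehicle-treated and from 1.58 to 6.36 CPM (median 4.21) in irradiated mice. These ranges of Clec4n met at their ends, and its log2 fold change was 1.77 ± 0.36 (edgeR adjusted p = 0.0017).

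On the TMM scale, the lowest mouse of the vehicle-treated irradiated group for Clec4e, Clec4d, Clec4n, Clec7a and Clec5a was in each case mouse 51, which had the highest Alb level of all 60 libraries, 21977 CPM. With total counts the lowest for Clec4d (51.3 CPM) and Clec4n (1.37 CPM) was instead mouse 50, which was not among the libraries with high Alb. In that group the summed neutrophil markers ranged from 1183 to 6670 CPM.

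The members with inhibitory motifs and the DCIR relatives did not pass the test on Day 1. Clec4a2 was at 6.31 ± 1.39 CPM with vehicle and 10.4 ± 5.09 CPM after TBI (log2 fold change 0.70 ± 0.32, edgeR adjusted p = 0.089). Clec12a was at 25.4 ± 5.75 and 26.9 ± 14.9 CPM, with a log2 fold change of 0.07 ± 0.35 (edgeR adjusted p = 0.89), which was -0.38 with total-count scaling. Clec4a1 was at 18.5 ± 3.53 and 9.64 ± 2.02 CPM, without overlap between the groups. Its log2 fold change of -0.96 ± 0.18 (edgeR adjusted p = 0.00097) was just inside the fold limit of 1, and it passed the limit without mouse 26 (-1.03) or mouse 53 (-1.08). The member DEG nearest to the limit on its other side was Clec4n. Clec4a3 had a log2 fold change of -0.45 ± 0.22 (edgeR adjusted p = 0.11).

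Against vehicle-treated mice on Day 0, with the same irradiated mice on the other side, 6 members were DEGs and all were higher, beside 26.9% of all 24751 genes and 15.1% in the higher direction. The sixth was Clec4a2, at 1.34 ± 0.33 on the log2 scale (edgeR adjusted p = 0.0072). Clec5a (3.11 ± 0.36), Clec7a (2.66 ± 0.39), Clec4e (2.62 ± 0.31), Clec4d (2.54 ± 0.29) and Clec4n (2.31 ± 0.38) had larger values than against Day 1. Clec12a was at 0.85 ± 0.37, and it became a DEG without mouse 51, at 1.00, and without all mice with high Alb, at 1.01. This comparison differs in the day of sampling as well as in irradiation. Between the vehicle groups of Day 1 and Day 0 no member was a DEG (0% of 24375 genes, with 3007 at an unadjusted p under 0.05 in edgeR's test and 37 DEGs with DESeq2). All 9 members had values above 0 there, from 0.06 for Clec4d to 0.71 for Clec4a3 on the log2 scale.

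In mice given 200 mg/kg BIO 300, TBI was compared with no TBI on Day 1. Here 5 members were again higher DEGs, beside 20.6% of all 23610 genes and 14.9% in the higher direction, and the median was 1.10 over the members and 0.41 over all genes. With total counts 7 members were higher DEGs, with Clec4a2 (1.74) and Clec12a (1.40) added and Clec4d at 2.05, beside 38.5% of all genes in the higher direction. The log2 fold changes were 2.31 ± 0.35 for Clec7a, 2.11 ± 0.32 for Clec5a, 1.93 ± 0.29 for Clec4e, 1.78 ± 0.43 for Clec4n and 1.10 ± 0.22 for Clec4d. Clec4d was the smallest of the 5, from a range of 32.8 to 56.8 CPM (median 46.6) to one of 72.9 to 149.6 CPM (median 103.5), without overlap. Without mouse 55 the Clec4d value was 0.97 and no longer past the fold limit. Clec4a2 had a log2 fold change of 0.85 ± 0.31 (edgeR adjusted p = 0.055) and passed both limits without mouse 46, 48, 57 or 60, at values up to 1.14.

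**Figure D2:**
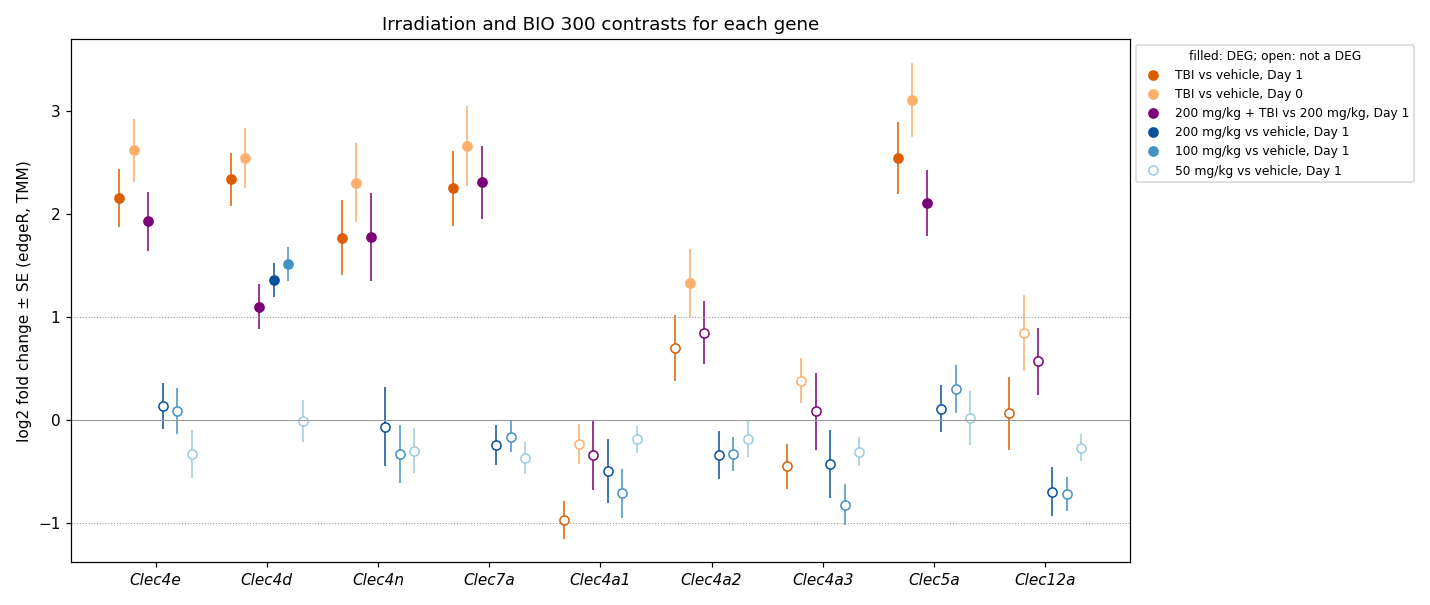
Log2 fold change ± SE of each gene in 6 comparisons (edgeR, TMM), with filled points for DEGs, open points for genes that were not DEGs, and dotted lines at the fold limit of 1. The 3 irradiation comparisons gave high values for Clec4e, Clec4d, Clec4n, Clec7a and Clec5a, and Clec4d alone passed both limits in the 100 and 200 mg/kg comparisons of Day 1 on the TMM scale but in neither with total counts (0.09 and -0.21).

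Between the 2 irradiated groups, with and without 200 mg/kg BIO 300, no member was a DEG (0% of 24916 genes, with 688 at an unadjusted p under 0.05 in edgeR's test and 0 DEGs with DESeq2). Without mouse 57, a library with high Alb, 2741 genes and without mouse 49 450 genes were at an unadjusted p under 0.05, with 0 DEGs in either case. The members' log2 fold changes ran from -0.41 ± 0.38 for Clec5a to 0.05 ± 0.25 for Clec4d. Clec7a was at 394 ± 194 CPM with vehicle and 337 ± 170 CPM with BIO 300. The SD of Clec7a in either group was larger than the difference between these means.

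The effects of BIO 300 without irradiation were examined by dose on both days. On Day 1, Clec4d was the only member among the DEGs in the 200 mg/kg group, where 47.8% of 23513 genes were DEGs and 17.3% were higher, and in the 100 mg/kg group, where 48.8% of 23699 genes were DEGs and 18.2% were higher. Clec4d ranged from 32.8 to 56.8 CPM (median 46.6) in the former and from 41.1 to 69.3 CPM (median 50.8) in the latter, against 13.4 to 24.2 CPM (median 19.2) with vehicle, so that neither dose overlapped vehicle on this scale. Its log2 fold change was 1.36 ± 0.16 for the higher dose (edgeR adjusted p = 5.6e-06) and 1.52 ± 0.17 for the lower (edgeR adjusted p = 2.8e-06) with TMM, and -0.21 and 0.09, not DEGs, with total counts.

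The other 8 members were lower DEGs at both doses when libraries were scaled to total counts, and none of them was a DEG with TMM. Their log2 fold changes with total counts ran from -2.19 to -1.42 for the higher dose and from -2.21 to -1.12 for the lower. Over all genes 65.5% were lower DEGs for the higher dose and 62.2% for the lower with that scaling. Relative to the median of all genes at 200 mg/kg, which was -0.48 with TMM and -1.96 with total counts, Clec4d was above it under both scalings, at 1.36 and -0.21. With TMM, Clec4e had a log2 fold change of 0.14 ± 0.22 for the higher dose and 0.09 ± 0.22 for the lower, and with total counts these were -1.42 and -1.32. Clec4a3 (-0.82 ± 0.20, edgeR adjusted p = 0.0025), Clec12a (-0.72 ± 0.16, 0.0016) and Clec4a1 (-0.71 ± 0.24, 0.018) at 100 mg/kg passed the adjusted p but not the fold limit.

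**Figure D3:**
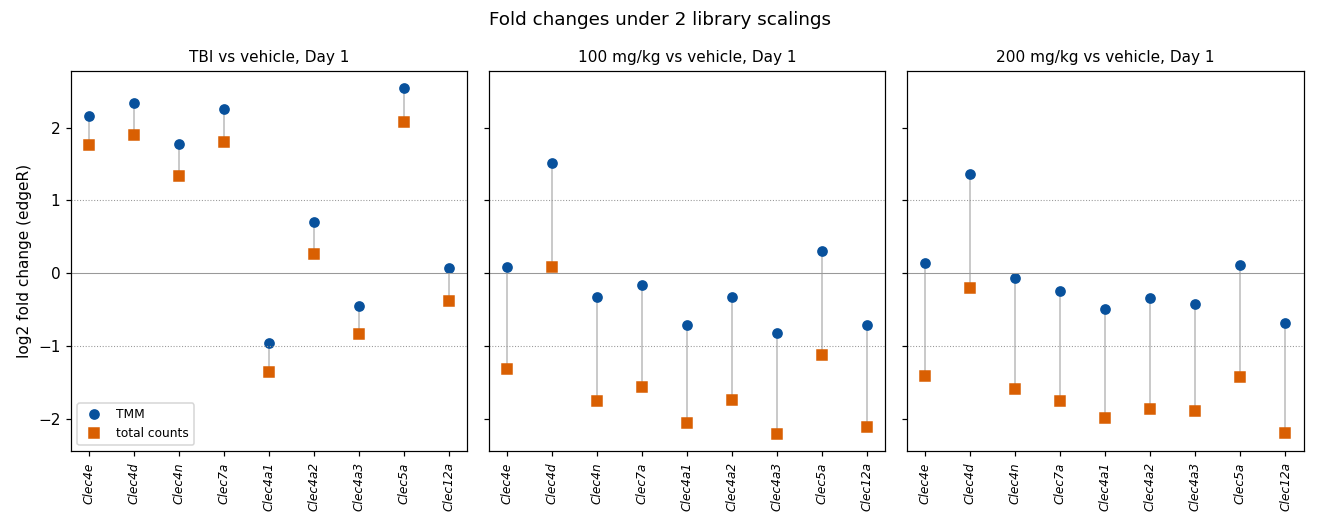
Log2 fold change of each gene (edgeR) with TMM scaling (circles) and with libraries scaled to total counts (squares), for TBI and for 100 and 200 mg/kg BIO 300 against vehicle on Day 1; dotted lines mark the fold limit of 1. The scalings gave the same 5 higher genes after TBI, whereas at 100 and 200 mg/kg all values moved down together with total counts and Clec4d stayed above the other 8.

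The ratio of Clec4d to Clec4e reads in 1 library does not depend on library scaling. It was 1.89 ± 0.28 (range 1.52 to 2.17) with vehicle on Day 1, 5.11 ± 1.05 (3.34 to 6.15) with the 100 mg/kg dose and 4.36 ± 0.63 (3.82 to 5.25) with the 200 mg/kg dose. It was 2.30 ± 0.18 (1.95 to 2.45) at 50 mg/kg on Day 1, and between 1.38 and 3.68 in the mice of Day 0. After TBI it was 2.09 ± 0.28 with vehicle and 2.52 ± 0.37 with 200 mg/kg BIO 300. Neither high-dose group of Day 1 overlapped the vehicle group, 50 mg/kg or either irradiated group in this ratio. This ratio was chosen after its values were seen and has no test. Clec4d held 27.8% and 29.0% of the reads of the 9 members at these doses on Day 1, against 10.1% with vehicle.

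**Figure D4:**
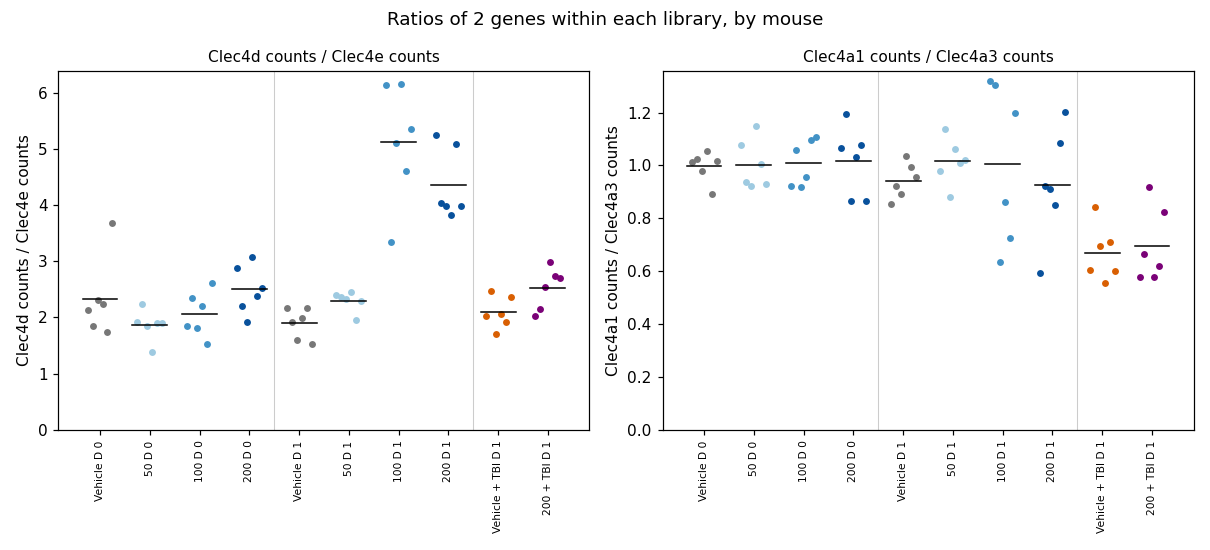
Reads of Clec4d divided by reads of Clec4e (left) and of Clec4a1 by Clec4a3 (right) in each library, by group, with bars at the mean of 6 mice. The left ratio was between 3.34 and 6.15 at 100 and 200 mg/kg on Day 1, and the right ratio was near 1 in unirradiated groups with means of 0.67 and 0.70 after TBI.

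The neighbours Clec4a1 and Clec4a3 had nearly equal reads in unirradiated mice, with group means of their ratio from 0.93 to 1.02, although single mice of the 100 and 200 mg/kg groups on Day 1 ranged from 0.59 to 1.32. After TBI the ratio was 0.67 ± 0.10 with vehicle (range 0.56 to 0.84) and 0.70 ± 0.14 with BIO 300 (0.58 to 0.92). The vehicle group on Day 1 had a ratio of 0.94 ± 0.07, from 0.85 to 1.04, and did not overlap the vehicle-treated irradiated group. This ratio was also chosen after its values were seen.

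At 50 mg/kg on Day 1 no member was a DEG (0% of 24118 genes, with 4458 at an unadjusted p under 0.05 in edgeR's test and 68 DEGs with DESeq2), and the values ran from -0.36 for Clec7a to 0.02 for Clec5a on the log2 scale, the latter -0.33 with total counts. Over all genes, edgeR called 29 DEGs without mouse 27 and 59 without mouse 36. On Day 0 no member was a DEG at 50 mg/kg (4.50% of 24485 genes), and the lowest value was that of Clec4d, -0.57 ± 0.16 (edgeR adjusted p = 0.036), which was 0.13 with total counts (edgeR adjusted p = 0.523). With total counts, Clec4a1, Clec4a3 and Clec12a were higher DEGs in that comparison, at up to 1.04 on the log2 scale, beside 10.5% of all genes. No member was a DEG at 100 mg/kg on Day 0 (0% of 24000 genes, with 726 at an unadjusted p under 0.05 in edgeR's test and 2 DEGs with DESeq2) or at 200 mg/kg on Day 0 (0% of 23795 genes, with 2145 and 2). Without mouse 9 the number at an unadjusted p under 0.05 was 1410 for the former, and without mouse 22 it was 1283 for the latter, with 0 DEGs. Clec4d (-0.39 ± 0.17) and Clec4a1 (0.49 ± 0.22) were at the ends of the member values for 100 mg/kg, and Clec7a (-0.08 ± 0.09) and Clec4a1 (0.21 ± 0.13, -0.03 with total counts) for 200 mg/kg.

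Whether responses differed between conditions was tested with interaction terms. For TBI and 200 mg/kg on Day 1, Clec4d was the only member called (29.6% of 26875 genes), at -1.09 ± 0.31 (edgeR adjusted p = 0.0085), so that TBI raised it less on the log2 scale in mice given BIO 300. The value was 0.14 and not called with total counts, where 6 members were called in the opposite direction, as were 43.6% of all genes. For 200 mg/kg and day, Clec4d was again the only one (36.7% of 25702 genes), at 1.23 ± 0.27 (edgeR adjusted p = 0.00069), and the value was -0.10 with total counts. For 100 mg/kg and day, 4 members were called (42.0% of 25908 genes): Clec4d at 1.91 ± 0.25, Clec4a3 at -1.29 ± 0.30, Clec4a1 at -1.20 ± 0.34 and Clec12a at -1.01 ± 0.23. With total counts Clec4d was not called (0.39, edgeR adjusted p = 0.212) and the other 8 members were called lower, as were 56.4% of all genes. Clec12a was not called with DESeq2 (-0.91), with edgeR's filterByExpr (-0.85) or without the mice with high Alb (-0.87). For 50 mg/kg and day no member was called (7.69% of 26323 genes). With total counts 8 members were, all with values below 0, as were 38.7% of all genes.

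The adaptor and signalling genes downstream of the receptors were described as a list of 26. After TBI in vehicle-treated mice on Day 1, 12 were higher DEGs and 3 lower (7 and 3 with total counts). The median log2 fold change was 0.89 beside 0.09 over all genes. Over all genes 19.6% were higher and 16.4% lower there with TMM, and 12.4% and 22.5% with total counts. Fcer1g, the adaptor of Mincle and Dectin-2, went from 64.2 to 214 CPM (1.72 ± 0.28), and Tyrobp, the adaptor of MDL-1, from 86.2 to 290 CPM (1.73 ± 0.31). Card9 rose by 2.01 ± 0.28 on the log2 scale, from 6.97 to 28.5 CPM. Syk was at 250 and 352 CPM and did not pass the test (0.47 ± 0.21, edgeR adjusted p = 0.081).

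At 200 mg/kg on Day 1, 7 genes of this list were higher DEGs and 3 lower with TMM, and 2 were higher and 17 lower with total counts. Over all genes the shares in this comparison were 17.3% higher and 30.5% lower with TMM, and 3.03% higher and 65.5% lower with total counts. With TMM the share of the list called higher was above that of all genes, and the share called lower was below it. With both directions pooled the share of the list was also below that of all genes (47.8%). With total counts the share of the list called lower was near that of all genes. With TMM, Fcer1g was a higher DEG (1.49 ± 0.14, edgeR adjusted p = 5.5e-07) at 171 CPM and Card9 a lower DEG (-1.58 ± 0.25, edgeR adjusted p = 8.3e-05) at 2.19 CPM. Tyrobp (0.21 ± 0.23) and Syk (0.15 ± 0.13) were not DEGs. In the interaction of TBI and 200 mg/kg, Fcer1g (-1.17 ± 0.33) was called lower, as was Clec4d, and Card9 (1.48 ± 0.46) was called higher, all with TMM. After TBI in mice given 200 mg/kg, 4 genes of the list were higher DEGs and 1 lower (16 and 0 with total counts). Over all genes 14.9% were higher and 5.73% lower there with TMM, near the shares of this list. With total counts the shares of all genes were 38.5% and 0.945%. Card9 was at 3.37 ± 0.40 and Tyrobp at 1.26 ± 0.26.

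Among 25 transcription factor and cytokine genes known as targets of these receptors, 9 were higher DEGs and 4 lower after TBI on Day 1 (24 tested, median 0.30). Over all genes 19.6% were higher and 16.4% lower there. Il1b, which encodes the cytokine interleukin 1 beta, rose from 50.1 to 380 CPM (2.90 on the log2 scale), and Nlrp3, the inflammasome sensor, from 14.7 to 102 CPM (2.77). Cebpb, a transcription factor of myeloid cells, rose from 22.3 to 64.5 CPM, and Rel, an NF-kappaB subunit, fell by 1.16 on the log2 scale. At 200 mg/kg on Day 1, 1 gene of this list was a higher DEG and 2 were lower (22 tested, median -0.63), and Rel was at -1.52. With total counts 0 were higher and 18 lower. Over all genes 17.3% were higher and 30.5% lower there with TMM, and 3.03% and 65.5% with total counts. After TBI on Day 1, 7 were higher and 1 was lower without the mice with high Alb, and 7 were higher and 8 lower with total counts. Over all genes 12.4% were higher and 22.5% lower there with total counts. Il12b was at 0 counts in the vehicle groups of both days, at 50 mg/kg on Day 0 and in vehicle-treated irradiated mice. After TBI in mice given 200 mg/kg, 7 of 23 were higher DEGs and 1 was lower, with Nlrp3 at 2.80 and Il1b at 1.99. With total counts 12 were higher and 0 lower. Over all genes 14.9% were higher and 5.73% lower there with TMM, and 38.5% and 0.945% with total counts.

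After TBI on Day 1, 19.6% of all genes were higher DEGs and 16.4% lower. Other pattern recognition receptors of myeloid cells were mostly higher there, with 18 of 27 genes higher DEGs and 2 lower (median 2.04). They included Trem1 (3.13), Siglece (3.00) and Cd14 (2.99), while Tlr9, an endosomal DNA sensor, was lower (-2.87). At 200 mg/kg on Day 1, 3 were higher DEGs and 6 lower with TMM (median -0.57), beside 17.3% and 30.5% of all genes. With total counts 0 were higher and 23 lower, beside 65.5% of all genes lower. Tlr9 (-2.03), Tlr1 (-1.98) and Tlr6 (-1.61) were lower and Cd36, a scavenger receptor, was higher (1.91) with TMM. After TBI in mice given 200 mg/kg, 19 of the 27 were higher DEGs and 1 was lower, beside 14.9% and 5.73% of all genes. The higher were led by Cd14 (3.39), Fpr1 (3.26), Cd33 (3.10) and Tlr5 (3.07).

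**Figure D5:**
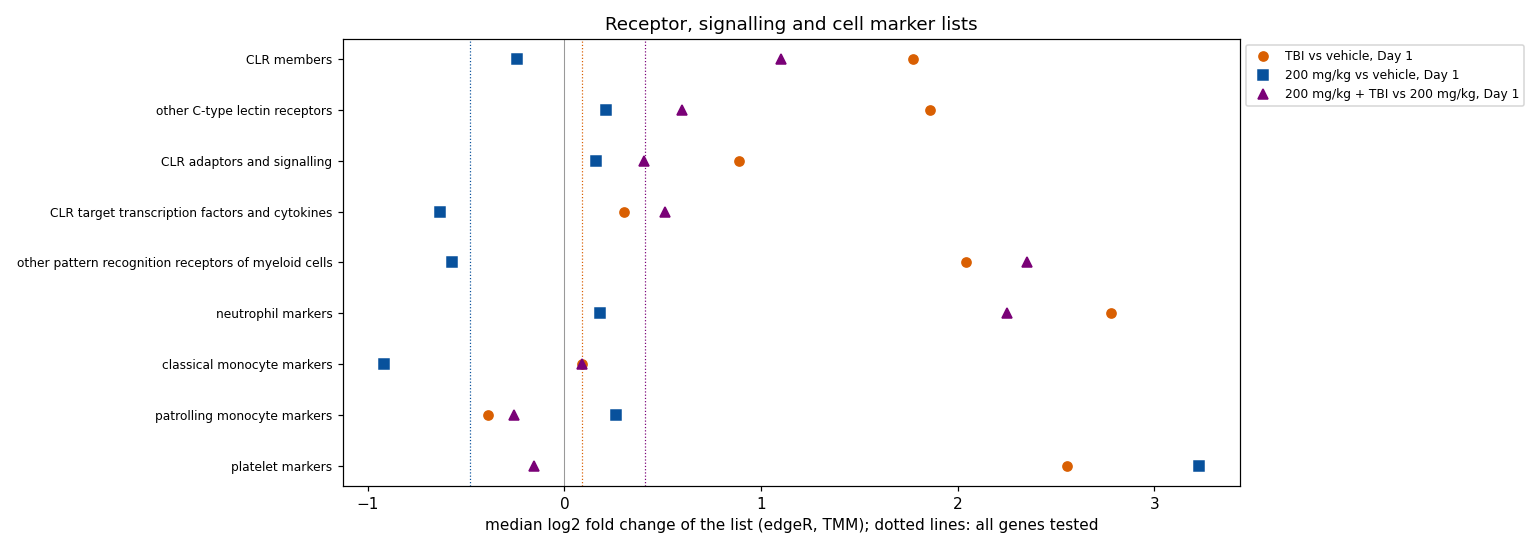
Median log2 fold change (edgeR, TMM) of the 9 members and of 8 other gene lists in 3 comparisons on Day 1, with dotted lines at the median of all genes tested. After TBI in vehicle-treated mice the members (1.77) lay below the neutrophil markers (2.78) and platelet markers (2.55), and at 200 mg/kg the platelet markers stood at 3.23 and the members at -0.24 (1.67 and -1.75 with total counts).

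Lists of blood cell type markers were described in the same comparisons. All 8 neutrophil markers were higher DEGs after TBI on Day 1 (7 with total counts), with a median of 2.78, and their summed level ranged from 434 to 706 CPM with vehicle and from 1183 to 6670 CPM after TBI. The markers included Csf3r (3.19), Cxcr2 (3.13), Mmp9 (3.00) and, below that median, S100a9 (2.67). The summed level was 1545 to 6154 CPM in irradiated mice given BIO 300. In that comparison the 5 member DEGs had smaller log2 fold changes than this median, from 0.23 less for Clec5a to 1.01 less for Clec4n. Against vehicle on Day 0 the value of Clec5a was 0.41 above the median of the neutrophil markers, and after TBI in mice given 200 mg/kg that of Clec7a was 0.06 above it. At 200 mg/kg on Day 1 none of the 8 neutrophil markers was a DEG with TMM (median 0.18), while 2 were higher DEGs without the mice with high Alb. With total counts 5 were lower DEGs (median -1.35), beside 65.5% of all genes. No neutrophil, B cell, T cell, platelet or haemoglobin marker was at 0 in all mice of a group.

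Monocyte markers were divided. Of 8 classical monocyte markers, 2 were higher DEGs and 3 lower after TBI on Day 1, with Chil3 (-3.53), Ccr2 (-2.53) and Ms4a6c (-2.31) lower and F13a1 (2.14), which platelets also express, higher. Of 8 patrolling monocyte markers 1 was higher and 2 lower. Over all genes 19.6% were higher and 16.4% lower in that comparison. All 7 platelet markers were higher DEGs after TBI and at 100 and 200 mg/kg on Day 1, under both scalings, and their summed level ranged from 1752 to 3514 CPM with vehicle and from 12674 to 22170 CPM at 200 mg/kg. In irradiated mice given vehicle the range was 3367 to 24629 CPM. All 4 haemoglobin genes were higher DEGs at 200 mg/kg (2 with total counts). All 8 B cell and all 8 T cell markers were lower DEGs after TBI and at 200 mg/kg on Day 1 with TMM. Over all genes at 200 mg/kg, 17.3% were higher and 30.5% lower with TMM, and 3.03% and 65.5% with total counts. At 100 mg/kg 18.2% of all genes were higher with TMM and 4.14% with total counts. After TBI with total counts the shares were 12.4% higher and 22.5% lower. For other lists, summed levels are given for vehicle on Day 1 and then for vehicle-treated irradiated mice. Dendritic cell markers were at 323 to 457 and 68.2 to 105 CPM, and NK cell markers at 84.8 to 215 and 12.7 to 99.1 CPM. Immature neutrophil granule markers were at 5.51 to 19.8 and 51.9 to 196 CPM. Eosinophil and basophil markers were at 27.7 to 47.5 and 18.5 to 75.4 CPM. The part of these cell markers in the values of the receptor genes was not tested.

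Liver and tissue macrophage transcripts were present in single libraries. The summed hepatocyte markers ranged from 5.55 to 35800 CPM and the summed Kupffer cell and tissue macrophage markers from 14.6 to 1385 CPM in vehicle-treated irradiated mice, and from 2.73 to 1956 CPM and from 13.0 to 53.4 CPM in vehicle-treated mice on Day 1. Without the 3 mice of that comparison with Alb over 100 CPM, Clec4e had a log2 fold change of 2.28, Clec7a of 2.54 and Clec5a of 2.85 after TBI, and the same 5 members were DEGs.

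Genes with a pattern most like that of Clec4e were ranked by Pearson correlation of the 10 group means of log2(CPM + 1), among 8993 other genes with a mean of at least 5 CPM. The first 5 were Cd300ld (r = 0.996), Fpr2 (0.994), Rgs2 (0.993), Klra17 (0.993) and Il1f9 (0.993). Fpr2 encodes a formyl peptide receptor and Il1f9 a cytokine of the interleukin 1 family. Among the members, Clec5a ranked 10 (0.991), Clec7a 50 (0.985), Clec4a2 394 (0.931) and Clec4d 546 (0.900), and Clec4a1 had r = -0.68. Clec4n, below the mean of 5 CPM, had r = 0.987. These group means share 2 irradiated groups that stand apart, so that the values describe that contrast.

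Within groups, after each group mean was subtracted, Clec4e correlated with Clec4d at r = 0.80, with Clec5a at 0.73 and with Clec7a at 0.70 over 60 mice. The highest pairs within groups were Clec4a1 with Clec4a3 (0.86), Clec7a with Clec12a (0.84) and Clec7a with Clec5a (0.84), and Clec4d with Clec4a1 was at -0.04. The mice of a group share a treatment and each value shares its library's scaling factor, so these correlations are descriptions.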

How the data were processed

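Whole blood RNA of 60 mice was analysed from the integer counts that the authors deposited, without normalization, for 49315 genes. Per the labels and methods, the authors used Trimmomatic 0.36 for trimming, STAR 2.5.2b for alignment to GRCm38 and Subread 1.5.2 for counting. The annotation release is not given in the sources used here. The deposited tables also hold a normalized signal (counts over a size factor for each mouse), which served here as a check of column identity. The authors' log2 fold changes and p-values from DESeq2 were not used. On library preparation the sources differ: poly(A) selection in the labels, and a stranded kit that removes ribosomal and globin RNA in the methods. Coordinates and exon lengths came from GENCODE M21.

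Each comparison was fitted with edgeR 4.0.16 (R 4.3.3, limma 3.58.1; quasi-likelihood test, TMM) on genes with at least 10 summed counts, and p-values were adjusted over all genes by Benjamini-Hochberg. Interactions were contrasts of 4 groups. The SE was the log2 fold change over the square root of F. Alternatives were total-count scaling, DESeq2 1.42.0, filterByExpr, no filter, leaving out the 10 mice with Alb over 100 CPM, and leaving out each mouse in turn. The fits were tested on simulated data. The members and lists were chosen with earlier results of these data known. The rule named all 9 members in every comparison; where few or none was a DEG, the text gives those called or at the ends of the range only. Of the signalling list, Fcer1g, Tyrobp, Syk and Card9 are named, and of other lists up to 4 DEGs with the largest changes and at least 5 CPM in 1 group. The 5 genes most like Clec4e were ranked by correlation of group means. Figures used Python with matplotlib.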

Additional observations from a re-analysis of the deposited data

Results flagged for a closer look

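In 12 of 90 gene and group combinations, 1 of the 6 mice stood apart by Dixon's criterion (the gap to the next mouse as a share of the group's range). All were the highest mouse of the group. Chance alone gives about 1 in 20 for normally distributed and independent values. That rate does not apply here, because CPM were not log-transformed and the genes share mice. Mouse 31 of the 50 mg/kg group on Day 1 stood apart for 4 genes: Clec4e (13.6 CPM), Clec4d (32.5 CPM), Clec7a (97.9 CPM) and Clec5a (9.93 CPM). Mouse 17 of the vehicle group on Day 0, a library with Alb over 100 CPM, stood apart for Clec4e (13.9 CPM) and Clec5a (4.63 CPM). Mouse 5 of the 50 mg/kg group on Day 0 did so for Clec4a1 (22.3 CPM) and Clec4a3 (22.2 CPM). The other mice were mouse 46 at 200 mg/kg on Day 1 for Clec4n (2.54 CPM), mouse 38 at 100 mg/kg on Day 1 for Clec4a1 (19.9 CPM), mouse 59 at 200 mg/kg with TBI for Clec4a1 (14.5 CPM) and mouse 11 at 100 mg/kg on Day 0 for Clec4a2 (7.61 CPM).

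In the interaction tests, 6 differences between conditions were called by edgeR's quasi-likelihood test. Clec4d differed for TBI and 200 mg/kg (-1.09 on the log2 scale), for 200 mg/kg and day (1.23) and for 100 mg/kg and day (1.91), all with TMM; with total counts these were 0.14, -0.10 and 0.39, and none was called. Clec4a1 (-1.20), Clec4a3 (-1.29) and Clec12a (-1.01) differed for 100 mg/kg and day. They were also called lower with total counts, as were 56.4% of all genes.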

How the results depend on the processing

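The 135 member values (9 genes in 15 comparisons) were recomputed under each alternative. With no filter on low counts 134 kept their direction and their side of the limits, and Clec7a for 100 mg/kg and day turned from near 0 to -0.028. With total counts the number of members called changed to 8 at 200 mg/kg and 8 at 100 mg/kg against vehicle on Day 1, to 3 at 50 mg/kg on Day 0, to 6 for TBI and 200 mg/kg, and to 8 for each dose and day interaction. It went from 5 to 7 for TBI in mice given 200 mg/kg. Genes at an unadjusted p under 0.05 changed to 6930 between the vehicle groups, 6780 at 50 mg/kg on Day 1 and 327 at 100 mg/kg on Day 0, with 0 DEGs. With total counts the sign turned for 30 values. These were Clec12a after TBI on Day 1 (-0.38); Clec4e (-1.42), Clec4d (-0.21) and Clec5a (-1.43) at 200 mg/kg on Day 1; Clec4e (-1.32) and Clec5a (-1.12) at 100 mg/kg and Clec5a (-0.33) at 50 mg/kg on Day 1. On Day 0 they were Clec4e (0.40), Clec4d (0.13), Clec4n (0.53) and Clec7a (0.53) at 50 mg/kg, Clec4n (0.059) at 100 mg/kg, and Clec4d (-0.11), Clec4n (-0.12), Clec4a1 (-0.032), Clec4a3 (-0.057), Clec5a (-0.068) and Clec12a (-0.085) at 200 mg/kg. Between the irradiated groups they were Clec4d (-0.067) and Clec4a1 (-0.14), and after TBI in mice given 200 mg/kg Clec4a1 (0.49). In the interactions they were Clec4e (1.14), Clec4d (0.14) and Clec5a (0.91) for TBI, Clec4e (-1.16) and Clec4d (-0.10) for 200 mg/kg and day, Clec4e (-1.22), Clec7a (-1.55) and Clec5a (-1.28) for 100 mg/kg and day, and Clec4d (-0.48) for 50 mg/kg and day.

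Values near 0 also turned with filterByExpr for Clec4n at 200 mg/kg on Day 1 (0.015) and for 100 mg/kg and day (0.0096), with DESeq2 (0.024) and filterByExpr (0.0070) for Clec4d at 50 mg/kg on Day 1, with DESeq2 (0.068) and filterByExpr (0.035) for Clec4e for 50 mg/kg and day, and with DESeq2 for Clec4a3 between the irradiated groups (0.023). Without the mice with high Alb they turned for Clec4e at 200 mg/kg on Day 0 (0.13) and between the irradiated groups for Clec4d (-0.059), Clec4a1 (-0.020) and Clec4a3 (0.033). Leaving out 1 mouse turned 16 values, none of them past the limits. On Day 1 these were Clec12a after TBI (-0.17 to 0.28), Clec4n (-0.52 to 0.090) and Clec5a (-0.053 to 0.21) at 200 mg/kg, Clec4e at 100 mg/kg (-0.035 to 0.23), and Clec4d (-0.22 to 0.10) and Clec5a (-0.30 to 0.16) at 50 mg/kg. On Day 0 they were Clec4a2 at 100 mg/kg (-0.15 to 0.13), and Clec4e (-0.10 to 0.20) and Clec4a2 (-0.13 to 0.078) at 200 mg/kg. The rest were Clec4d between the vehicle groups (-0.022 to 0.16), Clec4d (-0.069 to 0.15), Clec4n (-0.32 to 0.020), Clec4a1 (-0.10 to 0.11) and Clec4a3 (-0.16 to 0.089) between the irradiated groups, and Clec4a1 (-0.48 to 0.11) and Clec4a3 (-0.087 to 0.56) after TBI in mice given 200 mg/kg. The cause was not tested. No paired analysis was possible because each mouse has its own number and the groups share none. Depth limits Clec4n most, with 5 to 159 reads per mouse.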

Other observations

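Of 22 other C-type lectin receptor genes, 11 were higher DEGs and 5 lower after TBI in vehicle-treated mice on Day 1, with a median log2 fold change of 1.86, beside 19.6% higher and 16.4% lower over all genes. With total counts 8 were higher and 5 lower, beside 12.4% and 22.5% of all genes. Without the mice with high Alb 10 of 21 were higher and 6 lower, with a median of 0.28. Clec4g rose from 2.0 to 11.5 CPM (2.48), Olr1, an oxidised lipoprotein receptor, from 2.8 to 15.4 CPM (2.42), and Cd302 from 5.2 to 25.8 CPM (2.25), while Cd209a fell by 2.19 on the log2 scale. These single-gene values include mice 49 and 51 of the irradiated group, with Alb at 4293 and 21977 CPM. The part of these 2 libraries in the rises of Clec4g and the other named genes was not tested. At 200 mg/kg without TBI, 5 of 21 were higher and 7 lower with TMM, and 2 were higher and 11 lower with total counts. Over all genes 17.3% were higher and 30.5% lower with TMM, close to the shares of this list, and 3.03% and 65.5% with total counts. Clec1b, the platelet podoplanin receptor, rose from 148 to 1049 CPM there (2.90), Clec4g by 2.57 and Olr1 by 2.44, and Ly75 fell by 2.15. The 200 mg/kg and vehicle groups of Day 1 each held 1 library with high Alb, whose part in these values was also not tested. In mice given 200 mg/kg, 5 of 22 were higher DEGs after TBI and 0 lower, and the higher included Cd302 (2.52) and Clec2d (1.02). With total counts 13 were higher and 0 lower, and without the mice with high Alb 5 of 21 were higher and 3 lower. Over all genes 14.9% were higher and 5.73% lower there with TMM, and 38.5% and 0.945% with total counts.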
